A study of Homo sapiens with 2 samples.

Results

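The 300 brightest genes of HepG2 cells kept in the solvent control were selected on their brightness on a single Affymetrix Human Genome U133 Plus 2.0 array, and they are 300 of the 19775 genes measured there (1.52%). HepG2 is an established human hepatocellular carcinoma line. The cells, with no modification named in the labels, were grown in DMEM with 10% fetal serum and received 0.9% ethanol (EtOH) for 18 h. The RNA was taken from the combined cells of 3 cultures and filled 1 array, so no value has a replicate, an SD or a test. The study used this array as the control of a herbal extract dissolved in ethanol, and the array of the treated cells is not compared here. No array of untreated HepG2 cells or of liver is set beside it, so nothing below separates the line from the ethanol it received.

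The liver parenchymal cell, or hepatocyte, makes most plasma proteins, assembles lipoproteins, keeps blood glucose up between meals, turns ammonia into urea and oxidises and conjugates drugs and hormones. The fetal hepatocyte already secretes plasma proteins, with alpha-fetoprotein beside albumin, whereas much of the drug and amino acid metabolism comes on around and after birth. Hepatoma lines are known to keep parts of this programme and to lose others. HepG2 is widely used as a stand-in for hepatocytes because it still secretes plasma proteins.

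A gene was given the value of its brightest probe set among those that name this gene and no other. All values are log2 expression values of this array, on which a difference of 1 is a factor of 2. Probe sets bind their targets with different strength, so the order of brightness is not strictly the order of RNA abundance. The values ran from 0.42 to 16.62 with a median of 3.13 over the 54675 probe sets, and the most frequent value was 2.25. A gene was called above the limit from 2 log2 units over that most frequent value, at 4.25. By this limit 10291 genes lay above and 9484 (48.0%) below. A value below the limit means that the probe set was not well above background, and it does not show that the RNA is missing. The precision rests on 1 array, and the one error that can be seen within it is the gap between probe sets of the same gene.

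**Figure D1:**
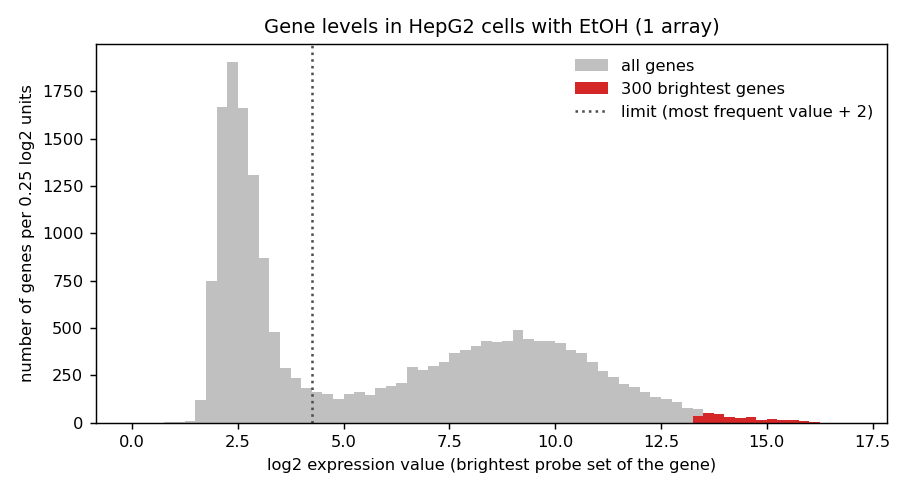
Histogram of the log2 expression values of all genes (grey) and of the 300 brightest (red) on the EtOH array, in bins of 0.25 log2 units, with the number of genes on the vertical axis. The dim peak lies to the left of the dotted limit at 4.25, and the 300 form the right tail from 13.37 to 16.62.

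The liver markers looked up for this sample were bright when each was read from its brightest probe set. Their ranks depended on the probe sets used, as given below. No other cell line was compared, so the label HepG2 itself was not tested. Albumin (ALB), the main carrier protein of plasma, was the brightest gene of all at 16.62. Alpha-fetoprotein (AFP), its fetal relative and a tumour marker of the liver, was at 15.96 and rank 9. Apolipoprotein A-I (APOA1), the core protein of high density lipoprotein, was at 15.30 and rank 37. Alpha-2-macroglobulin (A2M), a broad protease trap of plasma, was at 15.16 and rank 49.

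Sequences just upstream of the start of transcription are printed for a few liver genes at both ends of the scale, because letters near the start are compared further down. They come from RefSeq (GRCh38.p14), each gives the 110 bases before an annotated start on the strand of the gene, and none lies within the transcript. Capitals mark GTTAAT or its reverse complement ATTAAC, the core of the site of the hepatocyte nuclear factor 1 family, and TATAAA or TATATA, forms of the TATA box. The first group is bright (ALB 16.62, APOH 16.05, AFP 15.96, APOA2 15.58 and FGA 15.02), and CYP3A4 (2.72) and CYP2E1 (2.64) were below the limit. These genes were picked for a marked motif, and no single motif is in all of their windows. The last lines give genes without one, the bright AHSG (16.06) and FGG (15.75) and the dim OTC (2.10). Both windows of TF (15.98) and 1 of the 2 of SERPINA1 (16.14) also had none.
ALB, chr4:73404177-73404286, plus strand: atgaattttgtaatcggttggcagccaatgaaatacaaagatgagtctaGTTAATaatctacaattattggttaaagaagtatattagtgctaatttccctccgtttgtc
APOH, chr17:66229416-66229525, minus strand: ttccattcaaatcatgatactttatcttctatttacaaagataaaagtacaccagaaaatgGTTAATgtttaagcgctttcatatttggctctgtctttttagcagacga
AFP, chr4:73436111-73436220, plus strand: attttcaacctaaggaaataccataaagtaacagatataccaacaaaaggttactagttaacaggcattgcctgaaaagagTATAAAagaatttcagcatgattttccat
APOA2, chr1:161223629-161223738, minus strand: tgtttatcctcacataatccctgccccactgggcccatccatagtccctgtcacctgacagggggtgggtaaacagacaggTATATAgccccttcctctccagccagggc
FGA, chr4:154590743-154590852, minus strand: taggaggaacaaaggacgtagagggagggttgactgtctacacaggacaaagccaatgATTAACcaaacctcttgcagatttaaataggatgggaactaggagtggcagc
CYP3A4, chr7:99784185-99784294, minus strand: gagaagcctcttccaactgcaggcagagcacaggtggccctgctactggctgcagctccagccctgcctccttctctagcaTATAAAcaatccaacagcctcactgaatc
CYP2E1, chr10:133527253-133527362, plus strand: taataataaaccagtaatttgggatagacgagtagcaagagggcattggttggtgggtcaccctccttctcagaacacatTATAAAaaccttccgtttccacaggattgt
AHSG, chr3:186612950-186613059, plus strand: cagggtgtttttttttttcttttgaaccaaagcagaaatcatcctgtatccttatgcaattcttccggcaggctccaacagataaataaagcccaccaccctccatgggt
FGG, chr4:154612657-154612766, minus strand: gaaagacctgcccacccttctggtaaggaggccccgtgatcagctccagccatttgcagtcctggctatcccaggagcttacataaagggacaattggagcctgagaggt
OTC, chrX:38352494-38352603, plus strand: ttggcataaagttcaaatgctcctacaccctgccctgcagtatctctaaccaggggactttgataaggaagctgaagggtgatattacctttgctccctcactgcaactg

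A second set of windows stands for the other large class among the brightest genes, the ribosomal proteins, and covers 40 bases before the start and the first bases of the transcript. Here the capitals mark the run of C and T that lies over the start, the core of the motif by which ribosomal protein messages are known to be started and to be controlled in translation. RPL37A was at 16.05, RPLP1 at 15.93 and RPS16 at 15.72.
RPL37A, chr2:216498804-216498858, plus strand: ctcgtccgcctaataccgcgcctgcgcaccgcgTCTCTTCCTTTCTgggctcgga
RPLP1, chr15:69452778-69452832, plus strand: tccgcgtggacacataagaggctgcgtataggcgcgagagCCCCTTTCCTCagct
RPS16, chr19:39435935-39435989, minus strand: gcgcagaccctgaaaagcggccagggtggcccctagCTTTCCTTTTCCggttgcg

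The 25 brightest genes were a mixture of plasma proteins and the protein synthesis machinery. Plasma proteins took 6 of the first 10 places. After ALB these were the protease inhibitor alpha-1-antitrypsin (SERPINA1, 16.14), fetuin-A (AHSG, 16.06), apolipoprotein H (APOH, 16.05), the iron carrier transferrin (TF, 15.98) and AFP. The fibrinogen gamma chain (FGG) followed at 15.75, IGFBP1, a binder of insulin-like growth factors, at 15.60 and APOA2 of high density lipoprotein at 15.58. The elongation factor EEF1A1, which brings aminoacyl-tRNA to the ribosome, had rank 3 at 16.19, and TPT1 was at 15.63. Ribosomal proteins held 8 places, namely RPL37A, RPLP1, RPS16, RPL41 (15.72), RPL37 (15.70), RPS23 (15.62), RPL39 (15.60) and RPS27 (15.57). Subunits encoded by the mitochondrial genome held 4, with COX1 at 16.41, ND4 at 15.90, ATP6 at 15.84 and COX2 at 15.81. ACTB, a cytoskeletal actin, was at 15.60. FN1, the extracellular and plasma protein fibronectin, was at 15.70 and was the brightest gene outside every list used.

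The share of hepatocyte genes thinned out down the ranking. Genes of 13 hepatocyte lists were 6 of the 10 brightest, 9 of 25, 13 of 50, 20 of 100, 29 of 200 and 34 of 300. Ribosomal proteins were 2, 8, 21, 40, 47 and 49 at the same steps. Of the 300, 64 belonged to other lists of general cell functions, 4 to the fetal and hepatoma list outside the hepatocyte lists, 2 to lists of other liver cell types, and 148 to none of these. EPCAM is counted both among these 4 and among these 2. By their RefSeq type 298 were protein coding, 1 was a long noncoding RNA (NORAD, 13.76) and 1 a pseudogene (FTH1P5, 14.08), whose probe set may share targets with its parent gene. The span of the 300 was 3.25 log2 units, a factor of 9.53. The edge of the 300 was not a step, since the last members, OSTC and CHCHD2, both had 13.37, while the next genes outside, CNBP and BZW1, had 13.37 and 13.36.

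How far the ranks can be trusted was read from genes with several probe sets. Of the 300, 86 had 1 probe set and 214 had several. Among these 214 the brightest and the second differed by a median of 1.05 log2 units, with quartiles of 0.32 and 4.53, and in 105 (49.1%) by less than 1. Since the span of the 300 was 3.25, the gap between probe sets of a gene was often as large as the distance between many ranks. In 26 genes the second probe set was below the limit. The widest gaps were in RPLP1 (13.59), RPS27 (13.50), A2M (13.27), the ribosomal protein gene RPS29 (13.10) and IGFBP1 (12.72). A2M had 1 probe set at 15.16 and another at 1.89. ALB had 16.62, 16.40, 11.50 and 7.80, APOA1 had 15.30, 15.29 and 6.31, and SERPINA1 had 16.14, 16.03, 11.28 and 2.18. AFP had 1 probe set, so its value has no such check. The order of the markers depended on the probe sets used, and without the _x_at and _s_at types, which can take up several transcripts, ALB was at 11.50 and APOA1 at 6.31.

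**Figure D2:**
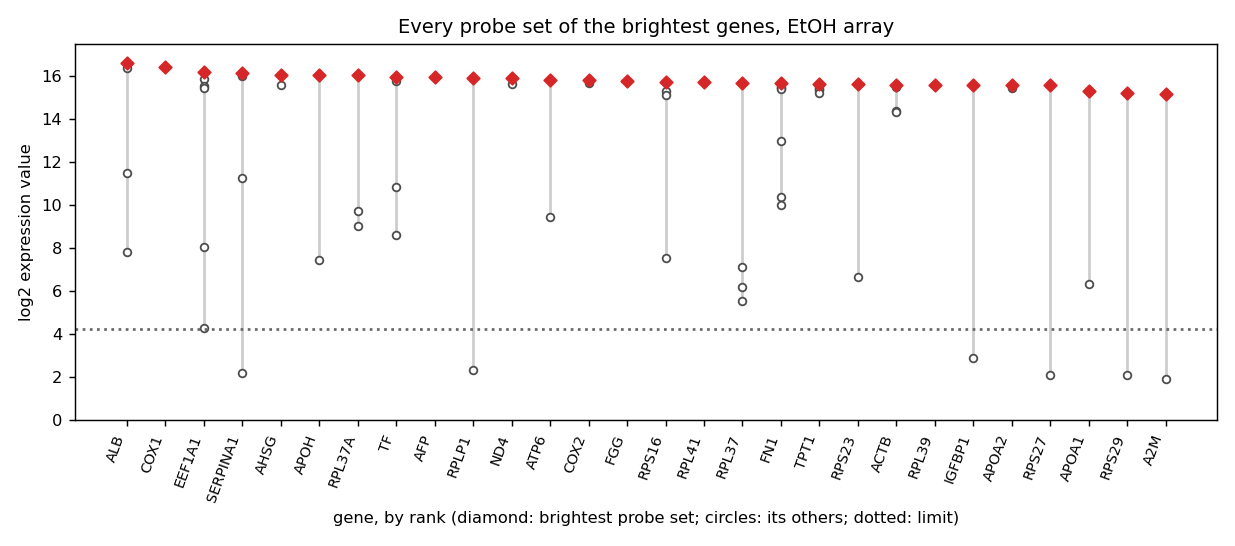
Every probe set of the 25 brightest genes and of APOA1, RPS29 and A2M, in order of rank, on a log2 scale (vertical axis). Red diamonds are the brightest probe set, which set the gene's value, open circles are its other probe sets and the dotted line is the limit. The diamonds lie between 15.16 and 16.62 while the circles reach down to 1.89, in A2M.

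Pooled over the hepatocyte lists, the genes of secreted proteins were brighter than those of cellular functions, but not list by list. Of 296 listed genes 254 had a probe set of their own. Of these 254, 34 (13.4%) were among the 300 against 1.52% of all genes, and 59 (23.2%) were below the limit against 48.0% of all genes. The 105 measured genes of secreted proteins had a median of 10.85, with 31 among the 300 and 19 below the limit. The 149 genes of cellular functions, from drug enzymes to transcription factors, had a median of 8.72, with 3 among the 300 and 40 below the limit. The secreted complement and acute phase list had a lower median (7.11) than the transcription factors (9.30) or the urea cycle and amino acid list (8.84). The median over all genes was 4.94. Because the lists were drawn up from knowledge of liver, with earlier results of these data known, these shares describe the array and are not tested.

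**Figure D3:**
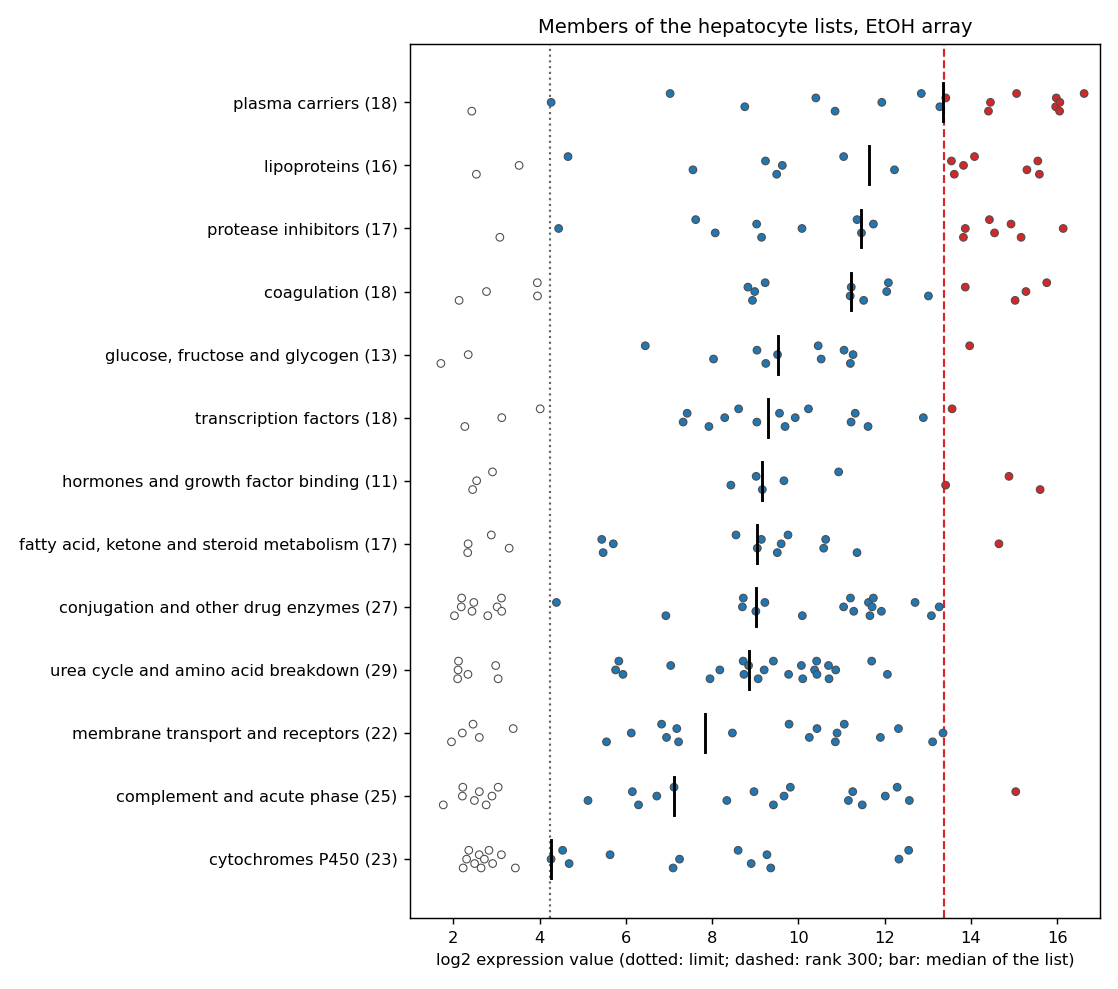
Log2 expression value of every measured member of the 13 hepatocyte lists, 1 row per list with its number of members. Red points are among the 300, blue points are above the limit, open points are below it, and the bar is the median. Plasma carriers have the highest median, 13.35, and cytochromes P450 the lowest, 4.26.

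Plasma carriers were the brightest list, with 9 of 18 among the 300 and a median of 13.35. Beside ALB, AHSG, APOH, TF and AFP these were AMBP (15.06), the precursor of bikunin and alpha-1-microglobulin, the acute phase protein ORM1 (14.45), the retinol carrier RBP4 (14.40) and the copper protein ceruloplasmin (CP, 13.42). The thyroid hormone carrier transthyretin (TTR) just missed them at 13.28 and rank 329. Lower members were haptoglobin (HP), which binds free haemoglobin, at 10.85, LRG1 at 8.76 and the sex hormone binder SHBG at 7.02. FETUB, a relative of AHSG, was at 4.27, next to the limit. Hemopexin (HPX), the haem carrier, was the 1 member below it, at 2.43 in the brighter of 2 probe sets.

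Lipoprotein genes had 7 of 16 members among the 300 and a median of 11.64. APOA2 (15.58), APOB (15.55), the structural protein of very low density lipoprotein, and APOA1 (15.30) led, followed by the receptor ligand APOE (14.08), APOM (13.83), APOC3 (13.61) and APOC1 (13.55). MTTP, which loads lipid onto APOB, was at 12.23. LCAT, which esterifies cholesterol in plasma, was at 9.63. The dimmest were APOC2, the activator of lipoprotein lipase, at 4.66, LPA, the protein of lipoprotein(a), at 3.52 and the paraoxonase PON1 at 2.53, of which the last pair lay below the limit. PON3, a relative of PON1, was at 9.49.

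Protease inhibitors had 7 of 17 members among the 300 and a median of 11.46. After SERPINA1 and A2M came heparin cofactor II (SERPIND1, 14.93), ITIH2 (14.54), SERPINF1 (14.43), the protein C inhibitor SERPINA5 (13.87) and ITIH3 (13.82). Antithrombin (SERPINC1) was at 11.74. The complement inhibitor SERPING1 was at 8.07, kininogen (KNG1) at 7.62 and ITIH4 at 4.44. Histidine-rich glycoprotein (HRG) was below the limit at 3.08.

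Coagulation genes had 4 of 18 members among the 300 and a median of 11.21. They were FGG (15.75), TFPI (15.27), the inhibitor of the tissue factor pathway, and the fibrinogen alpha (FGA, 15.02) and beta (FGB, 13.87) chains. Prothrombin (F2) was next at 13.01. Below the limit were KLKB1 (3.95), the precursor of plasma kallikrein, PROZ (3.94), the B chain of factor XIII (F13B, 2.77) and factor IX (F9, 2.13), each with 1 probe set. The factors of the other branches lay between, with F10 at 9.23, F12 at 8.99, F11 at 8.93 and F7 at 8.83.

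Complement and acute phase genes were lower than the other secreted groups, with 1 of 25 among the 300 and a median of 7.11. Of these 25, 8 (32.0%) lay below the limit against 48.0% of all genes. Complement C3, the hub of the cascade, was at 15.04. Its regulator CFI was at 12.57, LEAP2, an antimicrobial peptide, at 12.29, C5 at 12.01 and CFB at 11.48. Below the limit were members of the terminal pore (C9 2.49, C6 1.77), factor H relatives (CFHR2 2.89, CFHR4 2.60), the lectin FCN2 (3.04), LECT2 (2.21) and the inflammation markers CRP (2.76) and LBP (2.22). Other members of the terminal pore, C8A (8.97), C8B (6.29) and C8G (5.12), were above the limit. SAA1 and SAA2, classical acute phase genes, are read together by 2 shared probe sets at 3.41 and 2.47.

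Hormones and their binders had 3 of 11 members among the 300, IGFBP1 (15.60), angiotensinogen (AGT, 14.88) and MST1 (13.41). IGFBP2 was at 10.93 and the activin subunit INHBE at 9.66. IGF1, the growth factor made by adult liver under growth hormone, was at 2.54 in the brightest of 5 probe sets. IGFALS, which holds IGF1 in plasma, was at 2.91 and the fasting hormone FGF21 at 2.45. The growth hormone receptor (GHR) was at 2.60. In contrast, probe sets shared by IGF2 and its readthrough gene INS-IGF2 were at 15.09, 12.19 and 11.56.

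The cytochromes P450, the oxidases of drugs, sterols and bile acids, were the dimmest hepatocyte list. None of the 23 measured members was among the 300, 11 (47.8%) lay below the limit, near the share of all genes (48.0%), and the median was 4.26. Among those below were CYP3A4 (2.72, 5 probe sets), the main drug oxidase of adult liver, CYP2E1 (2.64, 4 probe sets), which oxidises ethanol, CYP2A6 (2.49, 4 probe sets) and CYP2D6 (2.23, 2 probe sets). CYP2B6 was at 2.60, CYP2C8 at 2.91, CYP3A5 at 3.44, CYP39A1 at 3.11, CYP7B1 at 2.82, CYP4A11 at 2.36 and CYP26A1 at 2.31. All but CYP26A1 had several probe sets, and none of these reached the limit. The top of the list was POR (12.55), the reductase that feeds electrons to the P450 enzymes, and CYP27A1 (12.33), a mitochondrial sterol hydroxylase. CYP2J2 (9.36), CYP4F3 (9.27) and CYP4F12 (8.90) followed, and CYP7A1, the rate-limiting enzyme of bile acid synthesis, was at 7.24. The fetal form CYP3A7 shares its probe sets with a readthrough gene, at 4.68 and 2.68.

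Conjugating and other drug enzymes had 18 of 27 members (66.7%) above the limit against 52.0% of all genes. They had 0 among the 300 and a median of 9.01. The sulfotransferases SULT1A1 (13.26) and SULT2A1 (13.08), the carboxylesterase CES1 (12.70) and the aldehyde dehydrogenases ALDH1A1 (11.92) and ALDH2 (11.74) led. Below the limit were ADH1A (2.43), ADH1B (3.11, 4 probe sets) and ADH1C (3.01), the alcohol dehydrogenases that carry most ethanol oxidation in adult liver. The others below it were NNMT (3.12), UGT2B17 (2.80), UGT2B15 (2.47), GLYAT (2.19), SULT1B1 (2.18) and the acetyltransferase NAT2 (2.02). The alcohol dehydrogenases of class I, the UGT2B genes and the SULT1A genes are near-identical within each family, so a probe set can pick up a relative and the values of single members are uncertain.

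Of the 22 measured membrane transporters and receptors 17 (77.3%) were above the limit against 52.0% of all genes. The list had a median of 7.84. The asialoglycoprotein receptor subunits ASGR2 (13.35, rank 304) and ASGR1 (13.11) led, followed by the canalicular pump ABCC2 (12.32), the citrate carrier SLC13A5 (11.90) and the drug pump ABCB1 (11.06). Of the bile acid carriers, SLC10A1, for basal uptake, was at 2.21 in its 1 probe set. ABCB11, the canalicular export pump, was at 2.46 in the brighter of 2. SLCO1B1, an uptake carrier of statins and bilirubin, was at 3.39, while its relative SLCO1B3 was at 10.25. The glycerol channel AQP9 was at 1.96.

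Urea cycle and amino acid genes lay in the middle, with 0 of 29 among the 300 and a median of 8.84. Above the limit were 23 of the 29 (79.3%) against 52.0% of all genes. HPD (12.06) of tyrosine breakdown, GLDC (11.70) of glycine cleavage and HAL (10.86) of histidine breakdown led, together with the citrate-aspartate carrier SLC25A13 (10.71) and ASL (10.70). In the urea cycle itself ARG1 was at 10.43, CPS1 at 10.10 and ASS1 at 10.07, whereas OTC was at 2.10 in its 1 probe set. Others below the limit were UPB1 (3.04), KMO (2.98), UROC1 (2.34), AGXT2 (2.11) and TDO2 (2.12), the liver enzyme that opens the tryptophan ring.

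In glucose metabolism PCK1, the cytosolic entry enzyme of gluconeogenesis, was among the 300 at 13.97. The catalytic subunit of glucose-6-phosphatase (G6PC1) was at 11.26, PCK2 at 11.20, TKFC at 11.06 and the liver glycogen phosphorylase PYGL at 10.53. FBP1, the enzyme between PCK1 and G6PC1 in the same pathway, was at 1.71, and the liver glycogen synthase GYS2 was at 2.34. Each of these lower pair had 1 probe set.

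Of the 17 measured genes of fatty acid, ketone and steroid metabolism 1 was among the 300, the fatty acid binder FABP1 (14.65). CIDEB (11.36), ACOX2 (10.63), CPT1A (10.58), which admits fatty acids to the mitochondrion, and ACSL1 (9.76) followed. Below the limit were AKR1C4 (3.29), AMACR (2.88), the glycolate oxidase HAO1 (2.34) and HSD11B1 (2.33), which regenerates cortisol. The median was 9.04.

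Transcription factors known for liver genes were mostly above the limit, in 15 of 18 cases (83.3%) against 52.0% of all genes. Their median was 9.30. CEBPB (13.56) was among the 300, and NR0B2 (12.89), CEBPA (11.61), FOXA2 (11.32) and PROX1 (11.22) followed. Below the limit were the nuclear receptor NR5A2 (4.01), GATA6 (3.12) and NR1I3 (2.27), the receptor that switches on drug enzymes such as CYP2B6.

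Genes of the fetal liver and of hepatoma were bright, with 5 of 18 among the 300 and a median of 11.40. Besides AFP these were PEG10 (15.12), DLK1 (15.08), the cell surface proteoglycan GPC3 (14.88) and the epithelial adhesion protein EPCAM (13.91). S100P was at 13.26, SOX9, a factor of bile duct and progenitor cells, at 12.45, the RNA binder IGF2BP2 at 11.53 and LIN28B, a blocker of let-7 maturation, at 11.49. SALL4 (2.88) and FGF19 (2.33), each with 1 probe set, were below the limit.

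Markers of other liver cell types were mostly below the limit, 30 of 40 against 48.0% of all genes, with a median of 2.93. In the endothelial list 9 of 10 were below, LYVE1 (3.12), ERG (3.05), KDR (2.92), TEK (2.76), CLEC4M (2.66), STAB2 (2.54), CDH5 (2.33), VWF (2.32) and CLEC4G (2.11), and PECAM1 was at 6.49. In the macrophage and leukocyte list 10 of 12 were below, with PTPRC, the common leukocyte antigen, at 3.19, the complement subunit C1QB at 2.84 and CD163 at 2.66. The dimmest were NKG7 (2.22), C1QA (2.16), MARCO (2.09), VSIG4 (2.08) and the T cell gene CD3E (1.65). Lysozyme (LYZ), in this list, was nevertheless at 14.36 and rank 120, and CD14 was at 4.36. In the stellate cell and fibroblast list 8 of 11 were below, with ACTA2 at 9.83, COL1A1 at 6.74 and PDGFRB at 5.94. Those below were RGS5 (3.78), COL1A2 (3.52), LUM (3.16), COL3A1 (3.04), THY1 (2.94), DCN (2.91), DES (2.89) and LRAT (2.61), which stores retinol as esters. In the bile duct list 3 of 7 (42.9%) were below, near the 48.0% of all genes. EPCAM (13.91), SOX9 (12.45), SPP1 (12.27) and KRT19 (10.23) were above the limit and MUC1 (4.10), CFTR (3.04) and KRT7 (2.90) below.

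The general functions filled more places than the liver lists. Of 225 measured members 113 (50.2%) were among the 300 against 1.52% of all genes, and their median was 13.38. Below the limit lay 8 (3.56%) against 48.0% of all genes. These lists too were chosen with earlier results of these data known, so the shares are descriptions and are not tested. Cytosolic ribosomal proteins had 49 of 60 genes among the 300, paralogs included, and a median of 14.97. With the _x_at and _s_at types left out, 12 ribosomal genes were among the 300. The 2 below the limit were the tissue-restricted paralogs RPL39L (2.37) and RPL3L (2.24). A low value need not stand for a ribosomal gene as such, since RPL27A was at 8.70 in its own probe set and at 15.57 in a probe set shared with the small nucleolar RNA gene SNORA3A. Ribosomal protein genes have many processed pseudogenes, and probe sets may take up their transcripts.

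Translation factors had 10 of 16 among the 300, with EEF1A1, TPT1, EIF1 (15.14), BTF3 (14.54) and NACA (14.23) in front. EIF4A2, a helicase of initiation, was at 3.09, a value that rests on its 1 own probe set. Chaperones had 12 of 23 and none below the limit, led by the mitochondrial HSPD1 (15.38), HSPA5 of the endoplasmic reticulum (14.88) and the cytosolic HSP90AA1 and HSP90AB1 (both 14.75) and PPIA (14.52). The dimmest of them, CCT5 (12.56), CCT7 (12.45), PFDN5 (12.02), HSPA9 (11.97) and PDIA4 (11.92), were far above the limit. Nuclear RNA and chromatin proteins had 10 of 18, led by NPM1 (14.82), RAN (14.37), YBX1 (14.30), HNRNPA2B1 (14.03) and HMGB2 (13.92). Their dimmest were SRSF3 (13.11), H2AZ1 (13.01), HMGN1 (12.26), HNRNPA1 (12.01) and H3-3A (5.20). The low value of H3-3A rests on its 1 own probe set. The probe sets it shares with H3-3B were at 12.76 to 14.00, except for another at 2.45. The respiratory chain and ATP synthase had 8 of 31, led by ATP5F1A (14.35), ATP5F1E (14.27), SLC25A3 (13.87), ATP5MC3 (13.87) and COX6A1 (13.76). None was below the limit, and the dimmest were NDUFA1 (11.46), NDUFV2 (11.46), SDHA (11.07), NDUFB2 (10.73) and ATP5MC1 (9.78). The proteasome and ubiquitin list had 2 of 22, UBB (15.03) and SKP1 (14.02), followed by PSMB5 (13.35), PSMB1 (13.32) and PSMA7 (12.96). At its lower end were PSMD4 (11.49), RBX1 (11.41), PSMD1 (10.95), PSMA5 (10.69) and PSMC1 (10.59).

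Redox and iron genes had 8 of 21 among the 300, with the ferritin light chain FTL (15.29), the selenium carrier SELENOP (15.18), the metallothionein MT2A (13.90), SOD1 (13.88) and PRDX1 (13.67) at the top. GSTP1, a glutathione transferase that adult hepatocytes are known to lack, was at 2.67. Cytoskeletal genes had 6 of 18, with ACTB, TUBA1B (14.10), MYL6 (14.08), TUBB (13.87) and TUBA1C (13.87) in front. The simple epithelial keratins KRT18 and KRT8 were at 13.30 and 11.83, and vimentin (VIM), the intermediate filament of mesenchymal cells, was at 2.87 in the brighter of 2 probe sets.

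The glycolysis list had 8 of 16 members among the 300, GAPDH (15.26), LDHA (15.20), ENO1 (14.92), PGK1 (14.72), ALDOA (14.60), PGAM1 (14.32), TPI1 (14.08) and HK2 (13.54). Lactate dehydrogenase A was above the limit while its partner LDHB was below it at 2.54 in the brighter of 2 probe sets. Of the phosphofructokinases PFKL, the liver form, was at 9.97, whereas PFKP (2.94) and PFKM (2.08) were below the limit. The hexokinases HK2 (13.54) and HK1 (4.99) were both above it. These are levels of different probe sets, so only their side of the limit is read here.

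Of the 148 members of the 300 outside these lists, 34 fell into 6 further lists that were drawn up after their values had been seen and that therefore support nothing. The mitochondrial genome had 5 of 7 measured genes among the 300, with ND2 at 15.36, COX3 at 10.50 and ND6, encoded on the other strand, at 9.58. The secretory pathway had 10 of 29, with RPN2 (14.76) of the glycosylation complex, SEC23A (14.29), RRBP1 (14.08), SSR1 (14.04) and CNIH1 (13.94), and no member below the limit. Its dimmest were SRP54 (10.71), SAR1A (10.60), SRPRB (10.32), STT3A (9.94) and KDELR3 (9.85). A list of genes known to respond to low oxygen had 13 of 28, among them FAM162A (14.16), PLOD2 (13.90), the glucose carrier SLC2A3 (13.83), BNIP3 (13.62) and VEGFA (13.53), beside enzymes of glycolysis given above, and CA12 was at 2.82. Sterol and fatty acid synthesis had 3 of 20, MSMO1 (14.58), the desaturase SCD (14.40) and SQLE (13.78), followed by SC5D (13.11) and FDPS (12.95), with INSIG1 at 2.88.

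Secreted signals, the fifth of these lists, had 7 of 20 among the 300. The chemokine CCL20 was at 15.10, the matrix protein CCN2 at 15.00, GDF15 at 14.54, the activin binder FST at 14.34, MIF at 14.13, VEGFA at 13.53 and EFNA1 at 13.48. Of the inflammatory cytokines and chemokines in this list CXCL8 (5.04), LIF (6.18) and IL11 (4.72) were above the limit, and CXCL1 (2.58), IL6 (2.31), IL1B (2.27) and TNF (2.06) were below it. INHBA (3.21) and WNT5A (2.84) were also below it. Imprinted genes had 4 of 15, PEG10, DLK1, GNAS (14.57) and PEG3 (14.33), and SGCE was at 10.97. Of these 15, 7 (46.7%) were below the limit, near the 48.0% of all genes. These 7 were MEG3, NNAT (2.97), PLAGL1 (2.96), SNRPN (2.71), the growth inhibitor CDKN1C (2.61), MAGEL2 (2.05) and NDN (1.99). MEG3, the maternally expressed neighbour of DLK1, was at 3.41 in the brightest of 10 probe sets, and the 2 probe sets that H19 shares with its microRNA gene were at 2.29 and 1.44.

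**Figure D4:**
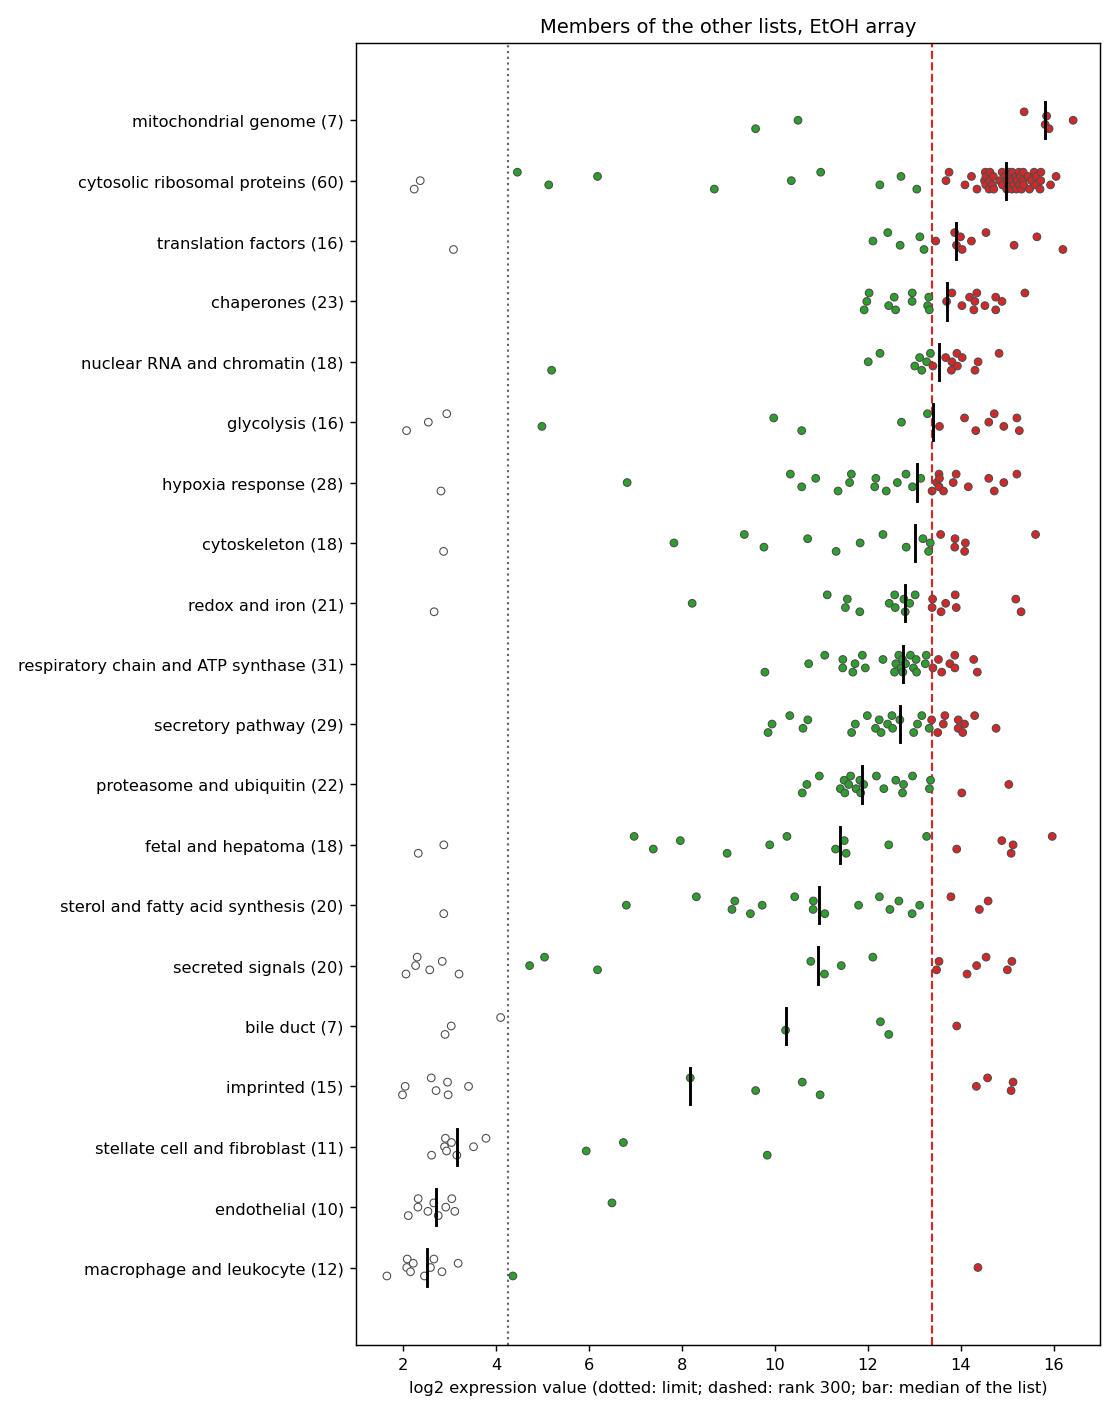
Log2 expression value of every measured member of the lists of general functions, of fetal and other cell types and of the 6 lists added after the values were seen, 1 row per list with its number of members. Red points are among the 300, green points are above the limit, open points are below it, and the bar is the median. Ribosomal proteins crowd around 14.97 while the endothelial median is 2.71.

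Neighbouring genes of the same family did not all share a level. In the albumin family on chromosome 4, ALB and AFP were at 16.62 and 15.96, while AFM, the next gene, was at 2.29. The 3 fibrinogen genes, also on chromosome 4, lay within 1.89 log2 units of each other, FGB at 13.87, FGA at 15.02 and FGG at 15.75. The 4 genes of the apolipoprotein A group on chromosome 11 were all above the limit, with APOA1 at 15.30, APOC3 at 13.61, APOA5 at 11.05 and APOA4 at 7.55. On chromosome 19, APOE and APOC1 were at 14.08 and 13.55 and APOC2 at 4.66. A probe set shared by APOC2, APOC4 and their readthrough gene was at 13.05, so the low value of APOC2 rests on its own probe sets alone.

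In the serpin A group on chromosome 14, 6 of 9 measured genes were above the limit and 3 below. SERPINA1 (16.14) lay, among the measured genes, between SERPINA2 (2.43) and SERPINA9 (2.21), with SERPINA12 at 3.85, SERPINA4 at 9.14, SERPINA5 at 13.87 and SERPINA3 at 11.46 beyond, and SERPINA10 (10.08) and SERPINA6 (11.93) on the other side. The inter-alpha-trypsin inhibitor genes of chromosome 3 were at 9.03 (ITIH1), 13.82 (ITIH3) and 4.44 (ITIH4).

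Enzyme groups were divided as well. Among the alcohol dehydrogenases of chromosome 4, ADH5 (11.97), ADH4 (11.05) and ADH6 (10.09) stood above the limit and ADH1A, ADH1B, ADH1C and ADH7 (2.64) below. In the UGT2 group of the same chromosome UGT2B28 (12.20), UGT2B4 (11.71) and UGT2A3 (11.62) were above the limit and UGT2B17 and UGT2B15 below, with the caveat on near-identical members given above. Of the CYP3A genes of chromosome 7 with a probe set of their own, CYP3A43 was highest at 4.53, while the brighter shared probe set of CYP3A7 was at 4.68. The measured genes of the factor H region on chromosome 1 (CFHR2, CFHR4 and F13B) lay between 2.60 and 2.89. The complement genes of chromosome 5 were also below the limit, C9 at 2.49, C7 at 3.21 and C6 at 1.77.

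**Figure D5:**
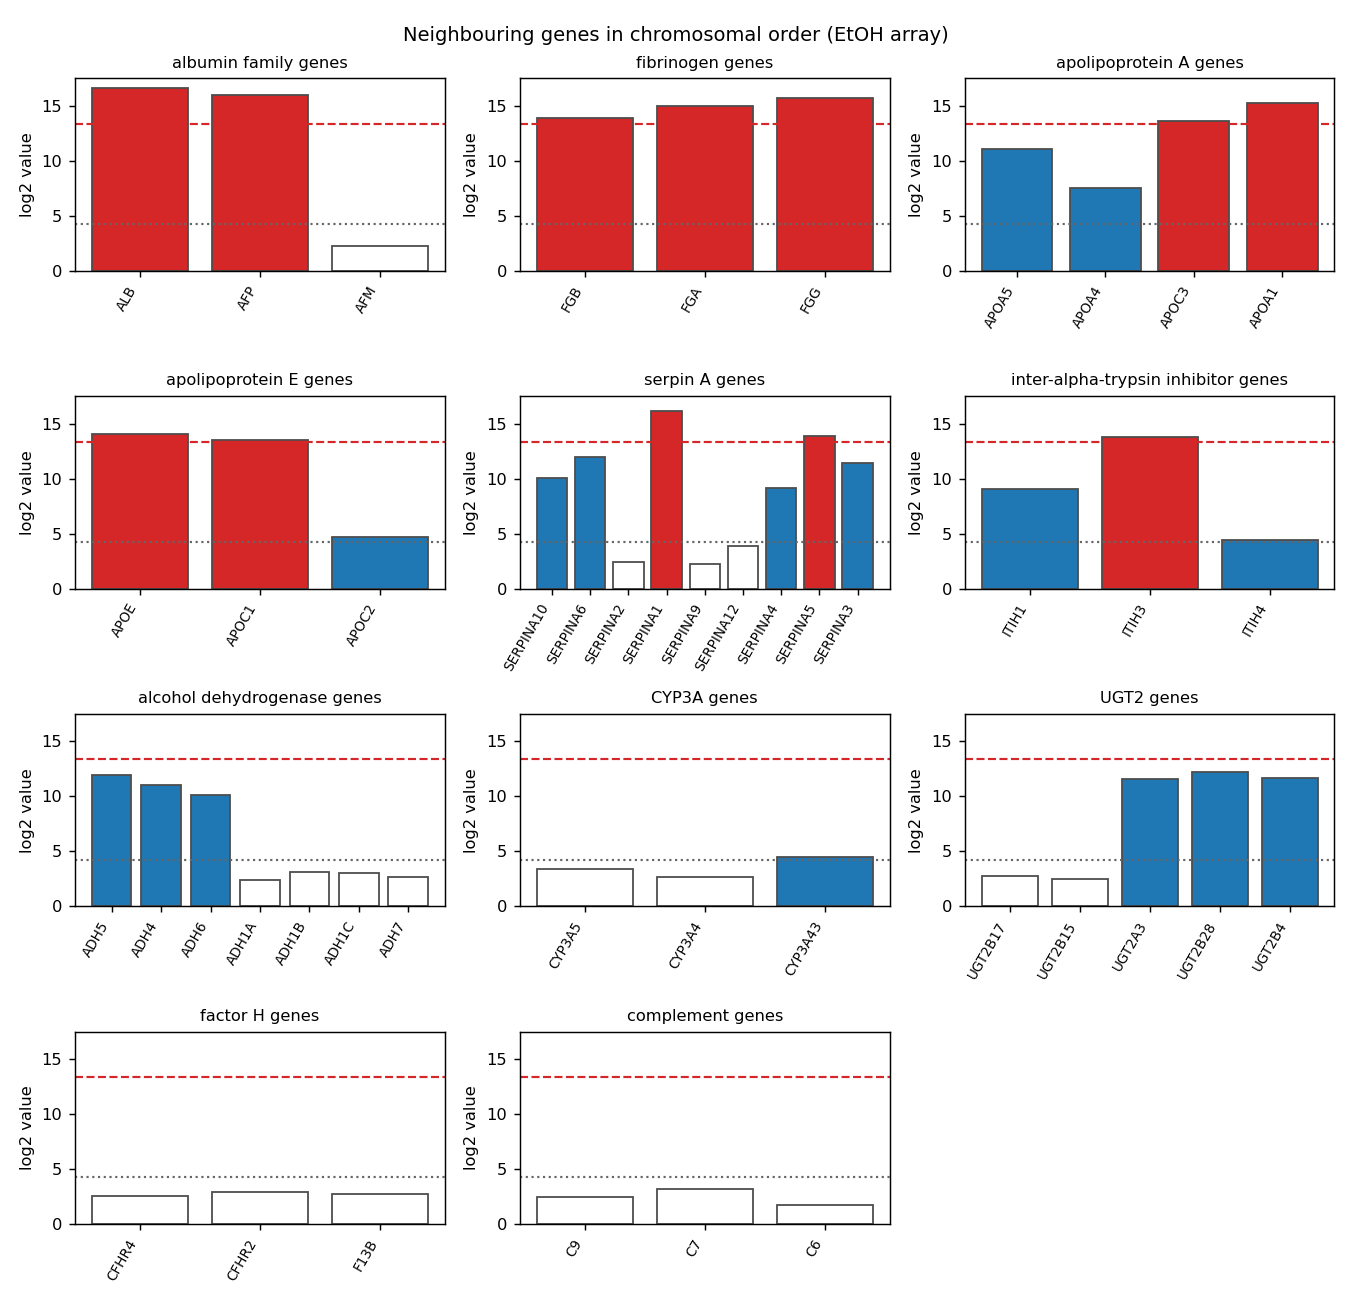
Log2 expression value (vertical axis) of neighbouring genes in their order on the chromosome, 1 panel per group with at least 3 measured genes. Red bars are among the 300, blue bars are above the limit, open bars are below it, and the dotted and dashed lines are the limit and the level of rank 300. The fibrinogen panel is red throughout, and the serpin A panel ranges from 2.21 to 16.14.

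The promoters were compared by features that brightness did not use. RefSeq windows of 250 bases before and 50 after the start were found for 245 of the 300 genes, 332 windows in all, and were set beside all 35116 windows. Of all windows, 21485 belong to genes measured on the array, and the others to genes without a value here. Windows of 1 gene overlap, so the shares are descriptions without a test. A TATAAA or TATATA on the strand of the gene, with its first base 40 to 20 bases before the start, was present in 41 windows of the 300 (12.3%) and in 3.12% of all. It stood in 8 of 32 windows of the hepatocyte genes among the 300 (25.0%), 4 of 50 of the ribosomal genes and 29 of 250 of the rest (11.6%). Hepatocyte genes below the limit had it in 10 of 59 windows (16.9%), so the letters also occur upstream of dim liver genes such as CYP3A4 and CYP2E1. Genes above the limit but not among the 300 had it in 1.77%, all genes below the limit in 5.27% and all measured genes in 3.42%. Among hepatocyte genes above the limit but not among the 300 the share was 10.5%.

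GTTAAT, on either strand in the 250 bases before the start, was not frequent among the 300 as a whole, 13 windows or 3.92% against 6.23% of all. The windows of measured genes had it in 4.96%. Of these 13 windows 8 belonged to the 32 of hepatocyte genes (25.0%) and 0 to the 50 of ribosomal genes. Hepatocyte genes that were above the limit but dimmer had it in 14.0% and those below the limit in 13.6%. The longer GTTAATNAT, which contains it, stood in 3 windows of the 300 (0.904%), all of hepatocyte genes, and in 0.723% of all. TTGCNNNAA, a form of the site of CEBP factors, on either strand, stood in 6 of the 32 windows (18.8%), in 20.3% of the windows of hepatocyte genes below the limit, in 7.23% of the 300 and in 7.81% of all.

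The ribosomal genes stood out by the start itself. A run of at least 7 C or T over the start was present in 32 of their 50 windows (64.0%), in 1 of the 32 hepatocyte windows and in 5.90% of all. GGGCGG on either strand, the core of the site of SP1, stood in 63.0% of the windows of the 300, near the 64.0% of genes above the limit but not among the 300. The share was 54.1% in the windows of measured genes and 42.6% in all windows. GGGCGG stood in 37.5% of the hepatocyte windows among the 300 and 11.9% of those of hepatocyte genes below the limit. CCAAT on either strand stood in 39.8% against 33.5% of genes above the limit but not among the 300 and 32.0% of all. The median GC content of the 250 bases before the start was 63.6% in the 300, 64.8% in genes above the limit but not among the 300 and 58.0% in all windows. In the windows of measured genes it was 62.0%. It was 55.8% in the hepatocyte genes among the 300 and 45.2% in the hepatocyte genes below the limit. A match of letters is not a bound site, and a missing match says only that the letters are not in this window.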

How the data were processed

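RNA of HepG2 cells treated with EtOH was hybridised to 1 array, and the authors turned the scanned probe intensities of both arrays of the study together into log2 expression values with GCRMA, which removes background by the sequence of each probe, normalizes by quantiles and gives 1 value per probe set. The deposited table holds these log2 values for 54675 probe sets. Per the labels, GCRMA was version 2.28.0 and R was version 2.15.1 (submitters' processing notes). The paper gives other versions and an unspecific filter, which was not applied here. The labels and the paper differ in flask size and in the hours of culture before treatment.

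Genes were named from the platform annotation and the RefSeq gene table. Of the probe sets 41097 named 1 gene, 1801 several and 11721 none, controls left out, and 42 of the 296 hepatocyte list members had no probe set of their own and are not analysed here. The limit was the most frequent value, in bins of 0.1, plus 2 log2 units. The GAPDH control probe sets at the 3′ and 5′ end differed by 0.08 and those of ACTB by 1.13 log2 units.

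The members and lists were chosen with earlier results of these data known, and 6 lists were drawn up after the values had been seen. The text names the 25 brightest genes, the last and the first genes on either side of rank 300, the 4 markers, the 5 brightest and 5 dimmest members of each list or all below the limit where these were 8 or fewer, all members of the gene groups shown, and the 5 genes with the widest gap between probe sets. Other names were chosen after their values were seen. The alternatives were a gene's median over its own probe sets, a ranking without the _x_at and _s_at types, counting shared probe sets for each of their genes, limits 1 or 3 log2 units over the most frequent value, bins of 0.2, and the 200 or 500 brightest genes. With 1 array no p-value or interval can be given. Python 3.11.15, numpy 2.4.6, pandas 2.3.3 and matplotlib 3.10.9 were used, and the steps were tested on simulated data.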

Additional observations from a re-analysis of the deposited data

Results flagged for a closer look

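Signal above the limit was also present in probe sets outside the ranking of genes. Of the 1801 probe sets that name several genes, 974 (54.1%) lay above the limit and 93 reached the level of rank 300, the highest at 15.69. Of the 11721 probe sets that name no gene in the annotation used, controls left out, 2255 (19.2%) lay above it and 44 reached the level of rank 300, the highest at 15.77. Among the hepatocyte genes measured only by shared probe sets, 6 had at least 1 of these above the limit, with IGF2 and INS-IGF2 at 15.09, ORM2 and ORM1 at 14.86 and APOC4 with APOC2 at 13.05 the brightest. SAA4 with its readthrough gene and VTN with SEBOX were both at 12.01, and CYP3A7 with its readthrough gene was at 4.68.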

How the results depend on the processing

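Of the 4 counts tested, those of genes above the limit and of hepatocyte genes below it or among the brightest stayed within 1.5 times of the main value under every alternative run. The genes above the limit ranged from 7597 to 11481 and the hepatocyte genes below it from 52 to 72. These are counts, and the number measured changed too, from 19775 genes and 254 hepatocyte genes in the main run. Without the _x_at and _s_at types they were 17100 and 211, of which 65 hepatocyte genes lay below the limit. With shared probe sets counted they were 21357 and 262. The hepatocyte genes among the brightest were 32 with the median over probe sets, 23 without the _x_at and _s_at types, 31 with shared probe sets counted, 29 of the 200 and 42 of the 500 brightest. The ribosomal count was 12 in place of 49 without the _x_at and _s_at types. The membership of the 300 depended on the value chosen, since 189 of the 300 were shared with the ranking by the median, 131 with the ranking without the _x_at and _s_at types and 202 with the ranking that counts shared probe sets. ALB moved to rank 90 by the median (13.95) and to rank 667 without these types (11.50), APOA1 to rank 6241 (6.31) without them, and A2M to rank 3716 (8.53) by the median, whereas AFP stayed at 15.96. The cause was not tested. Signal over background on 1 array limits every value, and no replicate could be left out. No paired analysis was possible because the array has no replicate and no comparison between groups was made.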
